A study of Mus musculus with 8 samples.

Results

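Fc receptors and the signaling chains they share with other receptors of microglia were described here in the prefrontal cortex (PFC) of a mouse model of Fabry disease, the lysosomal storage disease caused by loss of α-galactosidase A. The set holds 9 genes that were picked by name: the Fcγ receptor genes Fcgr1, Fcgr2b, Fcgr3 and Fcgr4, the adaptor chain genes Fcer1g, Tyrobp and Hcst, the receptor gene Trem2 and the kinase gene Syk. All 9 had a probe that could be tested, out of 34650 genes on the array and 23638 genes tested. The groups were 4 male α-Gal A(-/0) mice, which carry a null mutation of the X-linked α-galactosidase A gene Gla, and 4 male wildtype mice, both of the C57BL/6J strain by their labels and aged 20 to 24 weeks. Each genotype came from its own inbred colony, so colony and genotype cannot be told apart. PFC RNA of each mouse was labeled with Cyanine-3 and hybridized to 1 one-color Agilent array, and spots light up in proportion to the transcript that their probe matches. All values below are log2 signals after quantile normalization, which gives the 8 arrays the same distribution of signals.

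Fc receptors bind the constant part of antibodies. The activating receptors encoded by Fcgr1, Fcgr3 and Fcgr4 depend on the FcRγ chain, the product of Fcer1g, whose immunoreceptor tyrosine-based activation motif (ITAM) is phosphorylated by Src family kinases and then recruits the kinase Syk. The receptor encoded by Fcgr2b carries an inhibitory motif of its own, which recruits the lipid phosphatase SHIP1. Tyrobp encodes DAP12, the ITAM chain that carries the signal of TREM2, a microglial receptor for lipids and apolipoproteins. Hcst encodes DAP10, which holds no ITAM but a motif that binds phosphoinositide 3-kinase. In the brain these genes are known mainly from microglia and from the macrophages of vessels and meninges.

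The probes of Tyrobp and Fcgr3 are shown because they decide what these signals can measure. The Tyrobp probe lies across an intron on mm9 (chr7:31200651-31202378, plus strand), so it matches the spliced transcript, and the capitals mark the stretch that encodes the first tyrosine half-site of the ITAM. The Fcgr3 probe (chr1:172984129-172984188, minus strand, mm9) lies in the coding sequence of an immunoglobulin-like domain. Mouse Fcgr2b and Fcgr3 are nearly identical in that part, and cross-hybridization of the Fcgr3 probe with Fcgr2b transcript was not tested.
Tyrobp: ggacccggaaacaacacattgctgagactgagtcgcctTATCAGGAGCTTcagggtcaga
Fcgr3: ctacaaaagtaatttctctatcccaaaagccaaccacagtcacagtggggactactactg

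Of the 9 members, only Fcgr2b was called, with lower signal in α-Gal A(-/0) PFC at an adjusted p under 0.05, against 0.571% of all tested probes called lower and 0.877% called in either direction. No member was called higher. All 9 members had a log2 difference (α-Gal A(-/0) minus wildtype) under 0, as had 57.5% of all tested probes. In 5 members, Fcgr2b, Hcst, Fcer1g, Fcgr3 and Tyrobp, the 4 α-Gal A(-/0) values all lay below the 4 wildtype values, a pattern found in 4.76% of tested probes. The same 5 genes met the study's criterion when applied to limma's values (unadjusted p of at most 0.01 and fold change of at least 1.2), which 2.28% of tested probes met in this direction. With the methods' t-test in place of limma, 2 of them, Fcgr2b and Hcst, met it, against 1.15% of tested probes. An unadjusted p under 0.05 was reached by 8 of 9 members and by 7.39% of tested probes. The median log2 difference was -0.41 over the members and -0.02 over all genes tested. Values of the members were correlated from mouse to mouse, as described further on, so these counts are not those of 9 independent genes.

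**Figure D1:**
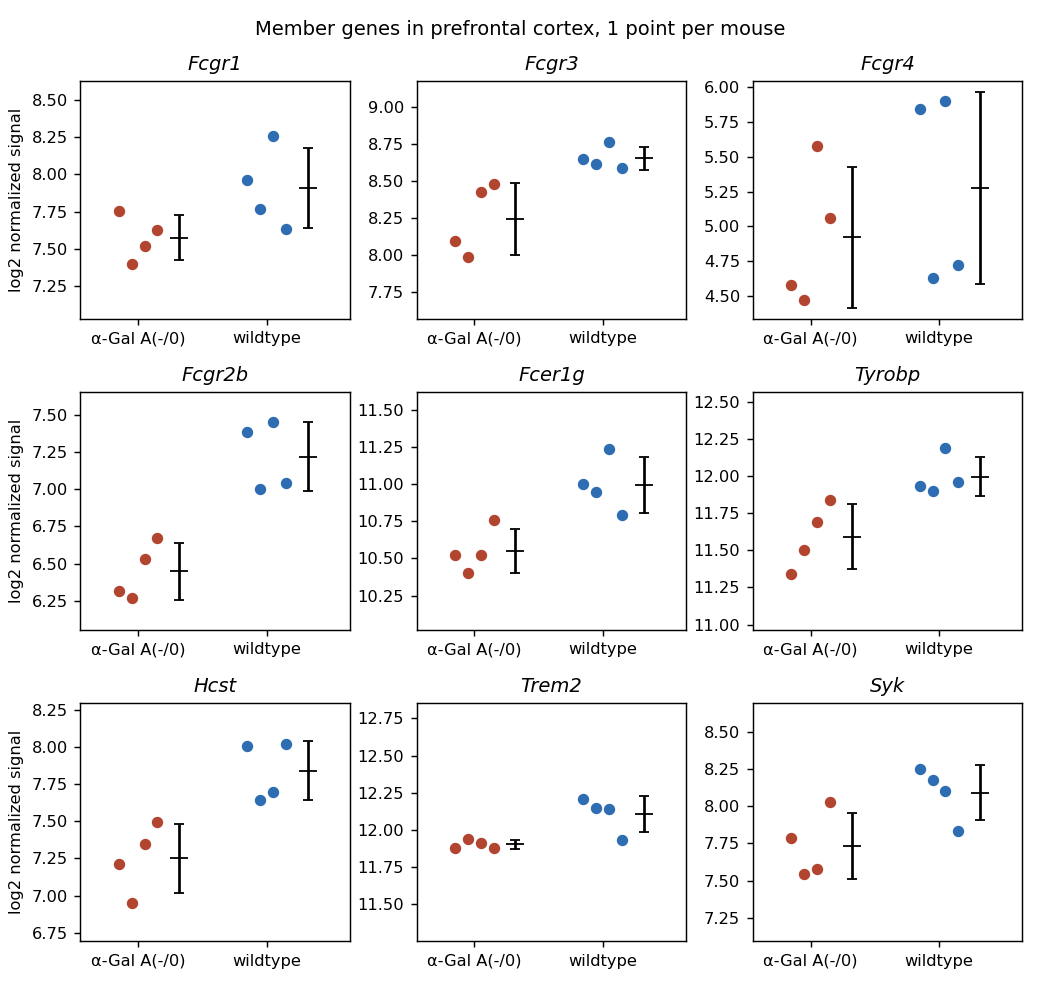
Log2 normalized signal (vertical axes) of the 9 members, 1 point per mouse, with α-Gal A(-/0) mice in red on the left and wildtype mice in blue on the right of each panel. Black bars give the mean and SD of 4 mice. In Fcgr2b the α-Gal A(-/0) mice sit between 6.27 and 6.68, below the lowest wildtype mouse at 7.0, while in Fcgr4 both genotypes hold high and low mice.

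Fcgr2b, the inhibitory Fc receptor, had log2 signals of 6.31, 6.27, 6.53 and 6.68 in the 4 α-Gal A(-/0) mice, against 7.39, 7.0, 7.45 and 7.04 in the 4 wildtype mice. The highest α-Gal A(-/0) mouse lay below the lowest wildtype mouse. Signal averaged 6.45 ± 0.19 in α-Gal A(-/0) PFC and 7.22 ± 0.23 in wildtype PFC (SD, n = 4 each), a log2 difference of -0.77 (SE 0.14, 95% interval -1.09 to -0.46). Fcgr2b signal was thus 1.71-fold lower in α-Gal A(-/0) mice (limma, Benjamini-Hochberg adjusted p = 0.049). The probe (chr1:172890988-172891047, minus strand, mm9) is printed in 10 spots on each array, and the SD among these spots, which measures technical spread within an array and not the spread between mice, was between 0.097 and 0.25. The call stood just inside the threshold: without any 1 of the 8 arrays the adjusted p lay between 0.055 (without α-Gal A(-/0) replicate 4) and 0.16 (without wildtype replicate 1), with differences between -0.85 and -0.70. After normexp background correction the difference was -0.49, with a call (limma, adjusted p = 0.031). This correction adds an offset of 50 to every signal, which by arithmetic shrinks log2 differences of dim probes more than those of bright ones.

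The activating receptors had smaller log2 differences, none of which passed the test. Fcgr3, which encodes the low-affinity FcγRIII, had log2 signals of 8.10, 7.99, 8.42 and 8.48 in α-Gal A(-/0) mice, against 8.65, 8.62, 8.76 and 8.59 in wildtype mice. The wildtype mice were close together and the α-Gal A(-/0) mice formed a lower and a higher pair, all below the wildtype values. The log2 difference of -0.41 (SE 0.12) did not pass the test (limma, adjusted p = 0.24). Fcgr1, the high-affinity receptor on chromosome 3 (chr3:96086839-96086898, mm9), ranged between 7.40 and 7.75 in α-Gal A(-/0) mice and between 7.64 and 8.26 in wildtype mice, with a log2 difference of -0.33 (SE 0.14, adjusted p = 0.41), and the genotypes overlapped. Fcgr4 (chr1:172959738-172959797, mm9) lay near background, well above it on 3 of 4 α-Gal A(-/0) arrays and on 4 of 4 wildtype arrays. Its log2 signals were 4.58, 4.47, 5.58 and 5.06 in α-Gal A(-/0) mice, against 5.84, 4.63, 5.91 and 4.72 in wildtype mice. High and low mice were found in both genotypes, and the log2 difference of -0.36 (-0.19 after normexp correction) had a standard error of 0.37 (adjusted p = 0.74).

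Of the adaptor chains, Fcer1g (chr1:173159794-173159853, mm9) had log2 signals of 10.52, 10.40, 10.52 and 10.76 in α-Gal A(-/0) mice, against 11.0, 10.95, 11.24 and 10.79 in wildtype mice. The genotypes did not overlap, but α-Gal A(-/0) replicate 4 lay just under wildtype replicate 4. Its log2 difference was -0.45 (SE 0.11, limma, adjusted p = 0.17). Tyrobp had log2 signals of 11.34, 11.50, 11.69 and 11.84 in α-Gal A(-/0) mice, against 11.93, 11.90, 12.19 and 11.96 in wildtype mice. The α-Gal A(-/0) mice were spread more widely than the wildtype mice and all lay below them, with a log2 difference of -0.41 (SE 0.12, adjusted p = 0.25). Hcst had log2 signals of 7.21, 6.95, 7.35 and 7.50 in α-Gal A(-/0) mice, against 8.01, 7.64, 7.70 and 8.02 in wildtype mice. Its log2 difference was -0.59 (SE 0.14, adjusted p = 0.14), again with no overlap between genotypes. After normexp correction Hcst differed by -0.39, beside -0.44 in Fcer1g and -0.40 in Tyrobp, so the order of the chains by size depends on the background correction. Hcst is the dimmest of these chains, and the normexp offset shrinks its difference most. Hcst (chr7:31202736-31202795, minus strand, mm9) lies 358 bases from the end of the Tyrobp probe on the opposite strand.

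Trem2 (chr17:48491537-48491596, mm9), the receptor that signals through DAP12, had log2 signals of 11.88, 11.94, 11.91 and 11.88 in α-Gal A(-/0) mice, against 12.21, 12.15, 12.14 and 11.93 in wildtype mice. Wildtype replicate 4 lay within the narrow range of the α-Gal A(-/0) mice, and the other wildtype mice lay above it. The log2 difference of -0.20 (SE 0.07, limma, adjusted p = 0.32) was the smallest among the members. Syk (chr13:52744088-52744147, mm9), the kinase downstream of the ITAM chains, ranged between 7.55 and 8.03 in α-Gal A(-/0) mice and between 7.83 and 8.25 in wildtype mice, a log2 difference of -0.36 (SE 0.13, adjusted p = 0.35) with overlap. A second Syk probe was not well above background on any array and was not tested.

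**Figure D2:**
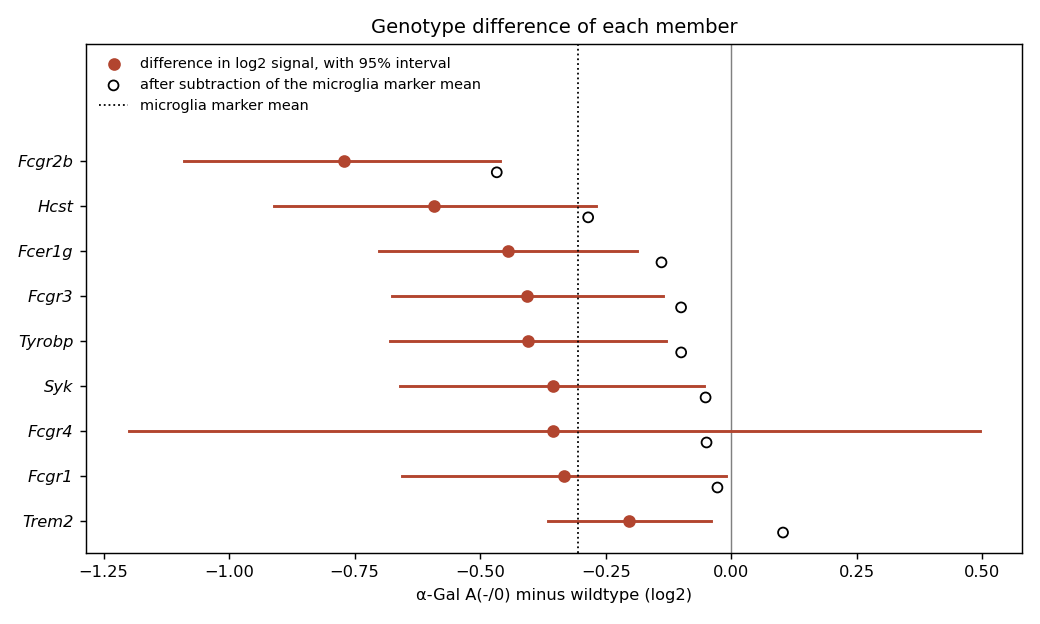
Difference in log2 signal (horizontal axis, α-Gal A(-/0) minus wildtype) for the 9 members, with its 95% interval, as filled points, and the same difference after the mean of 20 microglia markers on the same array was subtracted, as open points. The dotted line is the difference of the marker mean, -0.31. Fcgr2b at -0.77 lies farthest to the left, and Trem2 moves to 0.10 after the subtraction.

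All 8 arrays lay on 1 slide, in rows that held unequal numbers of each genotype. Row 1 held α-Gal A(-/0) replicate 1 with wildtype replicates 1 to 3, and row 2 held α-Gal A(-/0) replicates 2 to 4 with wildtype replicate 4. Fcgr2b differed by -0.97 within row 1, by -0.55 within row 2 and by -0.76 with the row as a block (limma, adjusted p = 0.20), so the block ended the call. Hcst differed by -0.57 and -0.76 within rows 1 and 2, Tyrobp by -0.67 and -0.29, Fcer1g by -0.54 and -0.23, and Fcgr3 by -0.58 and -0.29. Trem2 differed by -0.28 within row 1 and by -0.02 within row 2, and Fcgr4 turned direction between -0.88 within row 1 and 0.31 within row 2. Syk differed by -0.39 and -0.11, and Fcgr1 by -0.25 and -0.12. The members other than Hcst thus had smaller differences, or the opposite direction, within row 2, where wildtype replicate 4 is the one wildtype array.

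The Fcγ receptor genes Fcgr2b, Fcgr3 and Fcgr4 and the chain gene Fcer1g lie together on chromosome 1, with 269 kb between their outermost probes, whereas Tyrobp is on chromosome 7 and Trem2 on chromosome 17. To ask if the chromosome 1 genes behaved unlike Tyrobp and Trem2, the mean of Tyrobp and Trem2 was subtracted from the mean of the 4 chromosome 1 genes on each array. A difference between probes has no meaning as a level, since probes differ in brightness, and only its change between genotypes is read here. The values were -4.23, -4.44, -4.04 and -4.12 in α-Gal A(-/0) mice, against -3.85, -4.23, -3.82 and -4.16 in wildtype mice. The genotypes overlapped, and the difference of differences was -0.19, with SDs of 0.17 in α-Gal A(-/0) mice, against 0.21 in wildtype mice (n = 4 each, not tested). It ranged between -0.26 and -0.11 without any 1 array, was -0.14 after a 75th percentile shift and -0.05 after normexp background correction, and was -0.26 within slide row 1 and -0.04 within slide row 2.

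Each chromosome 1 gene was also set against Tyrobp alone, with no test. Relative to Tyrobp, Fcgr2b differed by -0.37 on the log2 scale, with all 4 α-Gal A(-/0) values (-5.02 to -5.23) below all 4 wildtype values (-4.54 to -4.92). Fcgr3 differed from Tyrobp by less than 0.01 in its change between genotypes (-0.00067), Fcer1g by -0.04 and Fcgr4 by 0.05, and in these 3 the genotypes overlapped. The separation of Fcgr2b from Tyrobp changed with the scaling. It was -0.30 with no overlap after the 75th percentile shift. After normexp correction it was -0.09 with overlap, where Fcgr2b differed by -0.49 and Tyrobp by -0.40. The normexp offset shrinks the difference of the dim Fcgr2b more than that of the bright Tyrobp, so this value cannot tell whether the genes separate. Under normexp Fcgr3, Fcer1g and Fcgr4 differed from Tyrobp by 0.08, -0.04 and 0.21, all with overlap. Without the dim Fcgr4 the remaining 3 genes differed from Tyrobp and Trem2 by -0.24 with no overlap (-0.11 with overlap after normexp correction), a value to which the large difference of Fcgr2b and the small one of Trem2 both contribute.

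**Figure D3:**
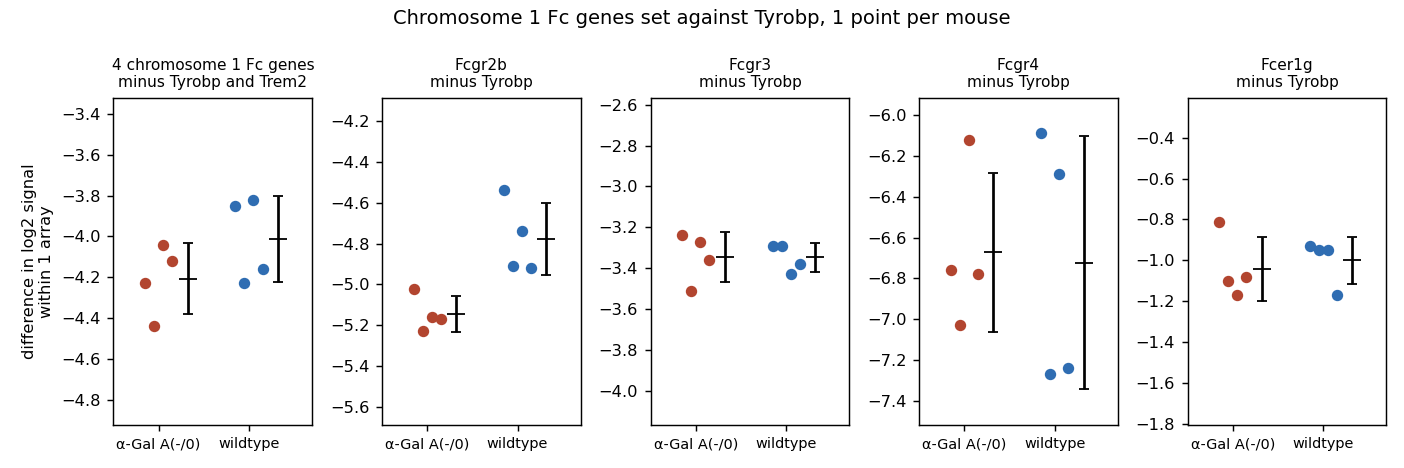
Difference in log2 signal between probes of the same array (vertical axes), 1 point per mouse, with mean and SD of 4 mice, for the 4 chromosome 1 Fc genes minus Tyrobp and Trem2 and for each of them minus Tyrobp. α-Gal A(-/0) mice are on the left in red and wildtype mice on the right in blue, and with quantile normalization only the panel of Fcgr2b shows genotypes that do not overlap.

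Genes that surround the cluster were read in the same fit, to set its members beside other genes of that stretch. Within 1 Mb of the interval, 53 other genes were tested, and 29 had a log2 difference under 0 and 24 above 0, with a median of -0.01. Of all genes tested, 56.7% had a difference under 0, a share near that of the neighbours. Among the neighbours 1 was called lower and 1 higher, against 0.601% and 0.326% of all genes tested. The one called lower, an unnamed transcript with its probe at chr1:173361681-173361740 (mm9), had log2 signals of 5.18, 5.45, 5.22 and 5.55 in α-Gal A(-/0) mice, against 7.38, 7.51, 7.59 and 7.55 in wildtype mice. It fell by 2.16 on the log2 scale, a 4.46-fold lower signal (SE 0.097, limma, adjusted p = 3.3e-05), and lies beyond Fcer1g at 471 kb from the Fcgr2b probe. After normexp correction, whose offset shrinks differences of dim probes most, its difference was -1.10, again called (limma, adjusted p = 1.8e-05). The probe was not well above background on all 8 arrays, so it passed the signal filter by 1 genotype only. Its α-Gal A(-/0) signals were as low as those of Fcgr4, near background, so the size of the fold is uncertain. Nhlh1, a transcription factor gene of neurons, was higher by 0.43 (SE 0.074, adjusted p = 0.046), a call that was lost without any 1 array (adjusted p between 0.074 and 0.16) and after normexp correction (0.27, adjusted p = 0.095). Of the neighbours not called, Arhgap30 differed by -0.52 and Slamf6 by -0.57, both with no overlap (limma, adjusted p = 0.22 and 0.24). Apoa2, an apolipoprotein gene whose probe lies 3.3 kb from that of Fcer1g, averaged 12.61 in α-Gal A(-/0) mice, against 12.40 in wildtype mice. Its α-Gal A(-/0) values lay above the wildtype values throughout, but it was not called (adjusted p = 0.32). The nearest tested neighbours of the Fc genes therefore lay on both sides of 0. The 4 cluster members all lay below it, as did the more distant Arhgap30 and Slamf6.

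**Figure D4:**
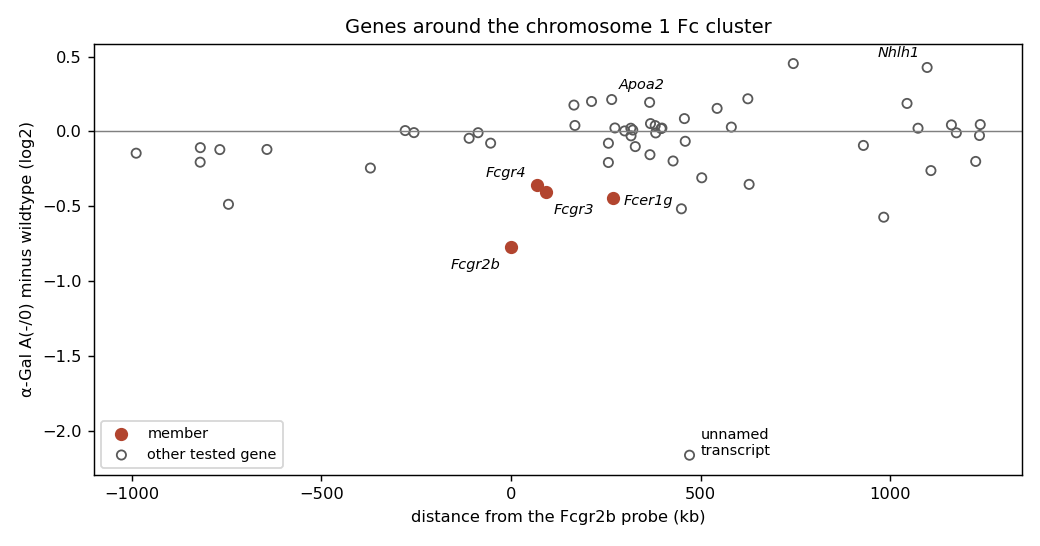
Difference in log2 signal (vertical axis, α-Gal A(-/0) minus wildtype) of tested genes against the distance of their probe from the Fcgr2b probe in kb (horizontal axis). The 4 members are filled red and the 53 other genes are open. The members lie between -0.36 and -0.77, most other genes lie near 0, and the unnamed transcript lies at -2.16.

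Promoters of the cluster genes and of Trem2 are shown for a motif that immune genes of myeloid cells often hold, the core GAGGAA of sites bound by the factor PU.1. The 250 bases before the start were searched on both strands (GAGGAA or TTCCTC) in the RefSeq promoters of GRCm38.p6. The 8 members searched were all but Tyrobp, and the motif was present in 5 of them (Fcgr1, Fcgr3, Fcgr4, Trem2 and 1 of the 2 starts of Syk), against 23.3% of 32851 promoters. Members were counted as genes, by any of their starts, whereas the share is over single promoters. A gene with several starts is more likely to be counted, so the figures are not strictly comparable. It was absent from the searched windows of Fcgr2b, Fcer1g and Hcst. The last 100 bases before the start are printed with the motif in capitals, on GRCm38.p6 at chr1:171059404-171059503 (Fcgr3, minus strand), chr1:171018826-171018925 (Fcgr4, plus strand), chr17:48346301-48346400 (Trem2, plus strand), chr1:170976072-170976171 (Fcgr2b, minus strand) and chr1:171234350-171234449 (Fcer1g, minus strand).
Fcgr3: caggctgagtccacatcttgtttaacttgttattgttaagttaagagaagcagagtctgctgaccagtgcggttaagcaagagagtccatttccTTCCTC
Fcgr4: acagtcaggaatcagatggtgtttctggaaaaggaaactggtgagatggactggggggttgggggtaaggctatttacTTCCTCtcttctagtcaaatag
Trem2: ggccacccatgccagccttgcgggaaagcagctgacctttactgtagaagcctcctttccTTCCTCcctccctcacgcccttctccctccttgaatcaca
Fcgr2b: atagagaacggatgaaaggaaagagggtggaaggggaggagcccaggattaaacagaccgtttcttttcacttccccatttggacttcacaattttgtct
Fcer1g: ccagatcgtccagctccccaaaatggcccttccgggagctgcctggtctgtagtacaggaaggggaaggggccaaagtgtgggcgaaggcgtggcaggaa

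Markers of microglia had lower values in the same mice. Of 20 microglia markers, 19 had a log2 difference under 0, 8 had α-Gal A(-/0) values all below wildtype values, and 2 were called lower, against 56.7%, 4.98% and 0.601% of all genes tested. Their median log2 difference was -0.31. Csf1r, the receptor that microglia need to survive, averaged 14.01 in α-Gal A(-/0) mice, against 14.45 in wildtype mice and fell by 0.44 on the log2 scale (SE 0.059, limma, adjusted p = 0.013). The call of Csf1r depended on single arrays and was lost without α-Gal A(-/0) replicate 1 (adjusted p = 0.054), α-Gal A(-/0) replicate 3 (0.050) or wildtype replicate 3 (0.050). Ctss, a microglial cathepsin gene, had a log2 difference of -0.70 (adjusted p = 0.086), while Itgam differed by -0.04 and Gpr34 by 0.25. Fcrls and Siglech, also known from microglia, were read in other lists and are not among the 20. They differed by 0.27 and 0.07 with overlap, and neither was called (limma, adjusted p = 0.52 and 0.67). The Itgam value is that of the brightest of its 3 tested probes. That probe averaged 15.38 in α-Gal A(-/0) mice, against 15.42 in wildtype mice, brighter than Csf1r. Whether it reads Itgam alone was not tested. The study names Csf1r, Ctss and Cx3cr1, and of the members Fcer1g and Fcgr2b, as lower in these samples, so neither the count over the list nor that over the members is independent evidence of direction. In bulk tissue, fewer cells of a type and less RNA per cell cannot be told apart.

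The mean of these 20 markers on each array, as the deviation from the mean of the 8 arrays, was -0.21, -0.16, -0.14 and -0.10 in α-Gal A(-/0) mice, against 0.17, 0.12, 0.28 and 0.05 in wildtype mice. The genotypes did not overlap, and the difference was -0.31. When this mean was subtracted on each array, the log2 difference of Fcgr2b was -0.47 and its genotypes still did not overlap. The other 8 members then overlapped between genotypes, with differences of -0.29 in Hcst, -0.14 in Fcer1g, -0.10 in Fcgr3 and in Tyrobp, -0.05 in Syk and in Fcgr4, -0.03 in Fcgr1 and 0.10 in Trem2. After normexp correction Fcgr2b still had no overlap, with a difference of -0.21, and the others overlapped, with -0.11 in Hcst and 0.06 in Trem2.

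**Figure D5:**
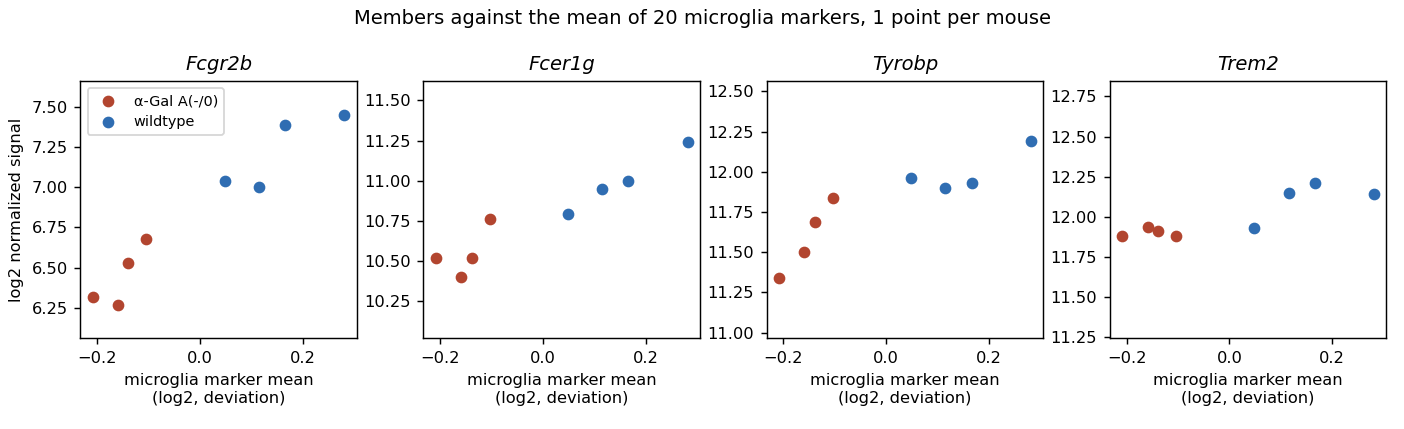
Log2 normalized signal of Fcgr2b, Fcer1g, Tyrobp and Trem2 (vertical axes) against the mean of 20 microglia markers on the same array (horizontal axis, log2 deviation from the mean of 8 arrays), 1 point per mouse, α-Gal A(-/0) mice in red and wildtype mice in blue. The wildtype mouse with the highest marker mean, 0.28, also had the highest Fcgr2b, Fcer1g and Tyrobp signals, whereas the 4 α-Gal A(-/0) mice hardly differed in Trem2.

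Within a genotype, the same mice tended to be high or low across members. Of the 9 members, 7 had their lowest value on the array of α-Gal A(-/0) replicate 2 and 6 had their highest on that of wildtype replicate 3. Over the 36 pairs of members, Pearson's r across the 8 arrays lay between 0.40 and 0.95 with a median of 0.75. The points share the arrays and the genotype difference. On deviations from the genotype means the median r was 0.46, with a range of -0.37 to 0.90. The closest pair by arrays was Fcgr2b with Fcer1g (0.95), and the pair most opposed by deviations was Trem2 with Hcst (-0.37). By deviations, Tyrobp and its partner receptor Trem2 had an r of -0.03.

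The genes most like 3 members across the 8 arrays were looked up among all genes tested, as a description. Nearest to Fcer1g were Ctsc (r = 0.99), which encodes cathepsin C, Itgb2 (0.99), the β chain of leukocyte integrins, and Gsg1 (0.98), and Abi3 (0.98), an actin regulator gene, was also among the 5 nearest. Ctsc and Itgb2 remained among the 5 nearest when deviations from the genotype means were used (0.98 and 0.99). Nearest to Tyrobp were Syngr2 (0.99) and then, among others, Abi3 and Pou3f3os (0.96 each). Nearest to Trem2 were Gpatch3 (0.99), Prune2 (0.96) and Pogk (0.95). Abi3 was thus in the lists of both chain genes and not in that of Trem2.

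Signaling genes downstream of ITAM receptors held 1 call in each direction among 26 tested of 32, against 0.601% of all genes called lower and 0.326% called higher. Of the 26, 21 had a log2 difference under 0, as had 56.7% of all genes, and their median was -0.16, against -0.02 over all genes. Blnk, an adaptor that Syk phosphorylates, had log2 signals of 11.64, 11.54, 11.55 and 11.58 in α-Gal A(-/0) mice, against 12.08, 12.13, 12.31 and 12.07 in wildtype mice. The genotypes were far apart relative to their spread, and Blnk was 1.49-fold lower (log2 difference -0.57, SE 0.069, limma, adjusted p = 0.0072), a call kept without each array in turn. Lck, a Src family kinase best known from T cells, was 1.35-fold higher (log2 difference 0.43, SE 0.061, adjusted p = 0.018), although that call was lost without α-Gal A(-/0) replicate 1 or 3 or without wildtype replicate 1, 2 or 4 (adjusted p between 0.054 and 0.077). With the slide row as a block neither was called (adjusted p = 0.051 for Blnk and 0.061 for Lck). Nor was either called with the replicate block (limma, adjusted p = 0.085 for Blnk and 0.12 for Lck). With the methods' t-test Blnk was not called (adjusted p = 0.14) and Lck was (0.046). The Lck probe lies at chr4:129225614-129225673 (mm9). The study lists Hdac1, Rbbp4, S100pbp and Txlna, in the same part of chromosome 4, as lower. Whether the Lck difference goes with this stretch and not with ITAM signaling was not tested. Below the threshold, Vav1 and Pik3cg had log2 differences of -0.36 and -0.49 with no overlap (adjusted p = 0.19 and 0.23).

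Among inhibitory receptors and brakes of the pathway, 0 of 27 tested genes were called and 5 had lower and 1 higher signal at an unadjusted p under 0.05 (limma), with a median of -0.10. Of all 23638 genes tested, 1739 were lower and 1134 higher at that unadjusted p, with a median of -0.02. Inpp5d, which encodes the phosphatase SHIP1 that the Fcgr2b product recruits, averaged 10.12 ± 0.017 in α-Gal A(-/0) mice, against 10.40 ± 0.085 in wildtype mice (SD, n = 4 each), with no overlap and an adjusted p of 0.090. Cbl, a ubiquitin ligase gene, differed by -0.44 (adjusted p = 0.17), Ptpn6, the gene of the phosphatase SHP-1, by -0.51 (0.31) and Siglece by 0.23 (0.23). None was called in the other groups of the pathway: among 7 other Fc receptor and Fc receptor-like genes, 1 lower and 1 higher had an unadjusted p under 0.05, among 6 other receptors that pair with the chains 1 lower, among 3 lymphocyte ITAM chains 1 lower, and among 4 ligands 1 lower and 1 higher. Clec7a, the β-glucan receptor gene, had the largest of these differences, -0.96, but a standard error of 0.33 (adjusted p = 0.32). In its group, the receptors that pair with the chains, 3 of 6 tested genes had a difference under 0, with a median of 0.03. The median was -0.03 over the other Fc receptor genes, 0.11 over the lymphocyte ITAM chains and 0.01 over the ligands. Lgals3, encoding galectin-3, differed by -0.59 (adjusted p = 0.13), and Apoe, whose product binds TREM2, by 0.05 (adjusted p = 0.80).

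Marker lists of other cells that could carry Fc receptors were read beside these. Over all 23638 genes tested, 56.7% had a log2 difference under 0. At an unadjusted p under 0.05 (limma), 1739 of these genes were lower and 1134 higher. Of 6 tested markers of perivascular macrophages, 0 were called, 6 had a log2 difference under 0 and 4 had lower signal at an unadjusted p under 0.05 (limma), with a median of -0.41. Mrc1, the mannose receptor gene, averaged 7.55 in α-Gal A(-/0) mice, against 8.04 in wildtype mice (adjusted p = 0.29), and Cd163 was not tested. The summed signal of the list was between 1499 and 1887 in α-Gal A(-/0) mice and between 1900 and 2344 in wildtype mice. Of 8 monocyte and neutrophil markers, 4 were tested and none reached an unadjusted p under 0.05, and Ccr2 and Ly6c2 were among the untested. Their summed signal overlapped, with 334.5 to 598.4 in α-Gal A(-/0) mice, against 412.0 to 839.9 in wildtype mice. Of 7 tested NK and T cell markers none was called and 1, Cd4, had an unadjusted p under 0.05 (log2 difference 0.42, adjusted p = 0.076), and both tested mast cell markers had differences above 0. Of the 5 tested microglia transcription factors all had a log2 difference under 0, 2 had an unadjusted p under 0.05 and none was called, with Irf8 at -0.48 (adjusted p = 0.068), and Spi1, the gene of PU.1, was not tested. The part of these cells in the members' differences was not tested.

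As checks of the samples, all 10 neuron markers were tested and had a median log2 difference of -0.08, while 8 striatum markers had differences above 0 with a median of 0.61 and a summed signal of 71640 to 186800 in α-Gal A(-/0) mice, against 57120 to 132800 in wildtype mice. Astrocyte markers had a median of -0.14, with all 10 under 0, and oligodendrocyte markers one of 0.17. The summed signal of astrocyte markers did not overlap, with 226700 to 234600 in α-Gal A(-/0) mice, against 236200 to 249500 in wildtype mice. Nor did that of neuron markers, with 251800 to 269800 against 278300 to 298100. Oligodendrocyte markers overlapped, with 205600 to 210600 against 198100 to 224200. The sum of microglia markers did not overlap either, with 104300 to 109100 against 117300 to 138200. Non-overlapping lower sums were thus not confined to microglia and macrophage lists. Such sums of linear signal are set mostly by the brightest genes of a list. Of the 10 neuron markers 7 had a log2 difference under 0, and 1, Snap25 (-0.31), had no overlap. Gad2 and Gad1 were higher by 0.15 and 0.06. Gla, the gene mutated in the model, had log2 signals of 17.13, 17.17, 17.18 and 17.13 in α-Gal A(-/0) mice, against 17.01, 17.16, 17.06 and 17.13 in wildtype mice (limma, adjusted p = 0.70). Whether its probe lies within the disrupted part of the gene is not given in the sources used here, so it does not check the labels. The probe was nearly as bright as that of Actb, which averaged 17.34 in α-Gal A(-/0) mice, against 17.37 in wildtype mice (limma, adjusted p = 0.91). Whether it reads Gla transcript alone was not tested, so its signal is not read as the level of Gla. Between 29943 and 36139 probes were well above background on the α-Gal A(-/0) arrays and between 35648 and 38240 on the wildtype arrays.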

How the data were processed

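PFC RNA of 8 mice was measured on 8 one-color arrays. Per the file headers, the deposited intensity values are processed signals of Agilent Feature Extraction (version 10.7.3.1 in the submitters' processing notes), corrected by the authors for gradients within each array and not normalized between arrays. Flags for signal above background, saturation and uneven spots come from the same files, and probe positions are given on mm9 by the array annotation. The series value table was not used, since its columns do not follow their sample names.

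Signals were taken to log2, quantile normalized over all spots and averaged per probe. Of 55681 probes, 81 with an uneven spot were left out, and 34339 were tested, each well above background throughout the 4 arrays of 1 or both genotypes, with limma 3.58.1 in R 4.3.3, by two-sided tests whose p-values were adjusted over the whole set after Benjamini and Hochberg, with a threshold of 0.05. For gene lists the brightest tested probe of a gene was used. The number of arrays limits the precision. Each array held RNA of a separate mouse. The fit was tested on simulated data before use.

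The members and lists were chosen with earlier results of these data known. Named are the members and, of each list, the genes past the test and otherwise up to 4 with the lowest p. Called genes within 1 Mb of the chromosome 1 cluster are named too, and otherwise those with the lowest p. The rule also names the 5 genes most like Fcer1g, Tyrobp and Trem2, with Gla and Actb as checks. Some genes that this rule names are not reported here. Gpr34, Itgam, Siglech, Gad1, Gad2, Apoa2, Cd163, Ccr2, Ly6c2 and Spi1 were named after their values were seen. Alternatives were scaling to the 75th percentile, normexp correction (offset 50), no filter or one on all 8 arrays, the methods' t-test, an intensity trend with robust variances, array weights, a replicate block, slide rows, saturated probes left out, each array left out, averages of all probes per gene and subtraction of the microglia marker mean. The single pairs with Tyrobp and the members relative to the marker mean under other scalings, and the study's criterion with the methods' t-test, were added after seeing the data.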

Additional observations from a re-analysis of the deposited data

Results flagged for a closer look

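The array of α-Gal A(-/0) replicate 2 had 29943 probes well above background, far from the nearest other α-Gal A(-/0) array with 35218, a gap that made up 0.851 of the range of the group (Dixon's test). It was the only 1 of 26 sets of 4 values checked that stood out, where chance flags about 1 in 20. The same array held the lowest value of 7 of the 9 members. Without it the difference of Fcgr2b was -0.71 (limma, adjusted p = 0.11), and all 9 members kept a difference under 0.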

How the results depend on the processing

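Fcgr2b remained called in 6 of 20 alternatives, namely the 75th percentile shift, normexp correction, the filter on all 8 arrays, an intensity trend with robust variances, array weights and saturated probes left out, and lost its call in the other 14, with differences of -0.77 without a filter, with the methods' t-test and with the replicate block (adjusted p = 0.13, 0.24 and 0.14), -0.76 with the slide row as a block, -0.97 within row 1, -0.55 within row 2 and -0.85 to -0.70 without single arrays. The number of members called was then 0, also without each single array (0 to 0). Probes called, 301 here, numbered 92 by the methods' t-test, 493 with array weights, 150 with the replicate block, 144 with the slide row as a block, 115 and 76 within rows 1 and 2, and 182 to 257 without single arrays. The other members were called in no alternative, and the only change of direction was that of Fcgr4 within row 2 (0.31). Arrays with the same replicate number share only that number, with residual correlations between -0.11 and 0.15, and the block changed no call of another member. Microglia markers called lower numbered 1 when all tested probes per gene were averaged. Subtraction of the microglia marker mean moved 8 of the 9 members by more than their SD, to -0.028 (Fcgr1), -0.47 (Fcgr2b), -0.10 (Fcgr3), -0.14 (Fcer1g), -0.10 (Tyrobp), 0.10 (Trem2), -0.29 (Hcst) and -0.051 (Syk). Except where fewer arrays or another number of probes entered the fit, the cause of these changes was not tested. Fcgr4, near background, is limited by its brightness.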
